A study of Homo sapiens with 9 samples.

Results

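The matrix metalloproteinases (MMP), the ADAM and ADAMTS proteases and the tissue inhibitors of metalloproteinases (TIMP) were picked from the expression table of AC16 cells by their gene symbols, that is, MMP, ADAM or ADAMTS followed by a number, and TIMP1 to TIMP4. The symbols picked 69 of the 60671 genes in the table, made up of 24 MMP, 4 TIMP, 22 ADAM and 19 ADAMTS genes. Levels were FPKM, which divides a gene's fragments by a length for that gene and by the size of the library. The table gives no gene lengths, so levels of different genes can be compared only roughly. The 39 genes that averaged 0.5 FPKM or more in any group are described, which are 10 MMP, all 4 TIMP, 13 ADAM and 12 ADAMTS genes. Of the other 30 genes, 12 were at 0 in all 9 libraries and 18 were above 0 somewhere, the highest group mean among them being 0.451 FPKM for ADAMTS14 in low glucose.

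Polyadenylated RNA was sequenced from AC16, a human line derived by fusing adult ventricular heart cells with transformed fibroblasts. The groups were high glucose with chrysin, a plant flavonoid, high glucose alone, and low glucose, with 3 libraries each. The sources used here give neither the sugar concentrations nor the dose or duration of chrysin, and the library names of the chrysin group begin with Bai although the treatment label names chrysin. The labels do not say whether the 3 libraries of a group came from separate cultures, so the p-values reflect the spread between libraries and this spread may be technical. Sequencing depth, as reads recovered from the table, ran from 18171842 to 23024300 per library.

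These enzymes cut proteins outside the cell or at its surface with a zinc ion in the active site. MMPs degrade collagens, fibronectin and other matrix proteins, either secreted or held at the membrane, and most are made as inactive zymogens. ADAMs are membrane proteins that release the outer parts of receptors and growth factors, a step called shedding, whereas ADAMTS enzymes are secreted and cut proteoglycans or trim procollagens. TIMPs plug the active sites, and in the heart the balance of these enzymes and TIMPs governs turnover of the interstitial matrix, much of which is made by fibroblasts.

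The labelled cardiomyocyte identity was checked against 12 marker genes of heart muscle cells. Of these, MYL2 and PLN were at 0 in all 9 libraries, TNNT2, MYH6 and MYH7 had no group mean above 0.0747, 0.009396 and 0.0024 FPKM in that order, and NPPB alone passed 0.5 FPKM. With NPPB included, the 12 summed to 10.14 to 11.92 FPKM in chrysin, 13.16 to 15.9 FPKM in high glucose and 19.54 to 20.33 FPKM in low glucose. All 10 fibroblast markers passed 0.5 FPKM, COL1A1 averaging 2899 FPKM in chrysin, 5138 FPKM in high glucose and 3707 FPKM in low glucose. Of 6 smooth muscle markers 5 passed 0.5 FPKM, and of 5 epithelial markers 3 did. The 2 lists summed to 294.6 to 424.4 FPKM and 232.8 to 361.9 FPKM per library. The library with the largest distance from the others of its own group was high glucose replicate 1, whose median absolute log2 difference from replicates 2 and 3 was 0.116 and 0.124, against 0.0864 to 0.093 in the other pairs.

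The most abundant transcripts came from both sides of the enzyme and inhibitor balance. ADAM9, a shedding protease, averaged 200.3 ± 3.38 FPKM in chrysin, 199 ± 10.1 FPKM in high glucose and 213 ± 4.12 FPKM in low glucose (SD, n = 3 each). Next in the mean over 9 libraries came TIMP2, TIMP1, MMP14, ADAM10 and ADAMTS1, and 17 of the 39 genes averaged 10 FPKM or more. This order is by FPKM and depends on the length used for each gene. In recovered reads over the 9 libraries TIMP2 was above ADAM9, with 109726 against 88634. The collagenase and gelatinase genes other than MMP2 were nearly silent: MMP1 had 1 to 8 reads per library, MMP9 had 0 to 4, MMP8 had 0 to 1 and MMP13 had none.

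**Figure D1:**
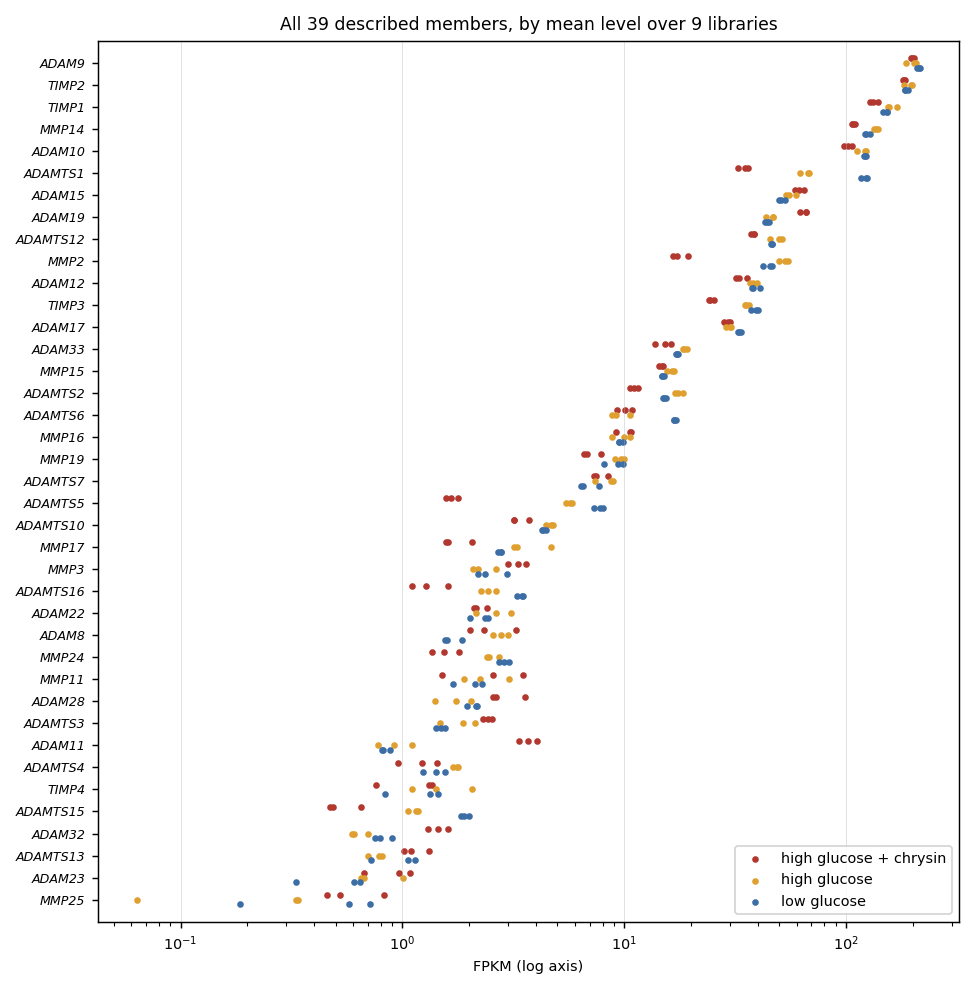
Level of each of the 39 described genes in each of the 9 libraries, in FPKM on a log axis, with genes ordered by their mean over all libraries and 1 point per library coloured by group. ADAM9 stands at the top with a mean of 200.3 FPKM in chrysin, MMP25 at the bottom was detected with 2 to 24 reads per library, and the chrysin points of MMP2, ADAMTS5 and ADAM11 lie apart from the other groups.

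Summed over each family, the libraries parted for MMP, TIMP and ADAMTS genes and overlapped for ADAM genes. The 24 MMP genes summed to 170.5, 170.0 and 165 FPKM in chrysin, 240.0, 242 and 230.4 FPKM in high glucose and 208, 222 and 216 FPKM in low glucose. The 4 TIMP genes summed to 349, 337 and 339.7 FPKM in chrysin, 404, 391 and 376 FPKM in high glucose and 378, 373 and 383 FPKM in low glucose. For both sums all chrysin libraries were lowest, and for TIMP the high and low glucose libraries overlapped. The 19 ADAMTS genes summed to 110.4, 116 and 115 FPKM in chrysin, 160.0, 175 and 173 FPKM in high glucose and 231, 224 and 230.2 FPKM in low glucose, 3 ranges that did not overlap, with low glucose on top. The 22 ADAM genes gave 525, 527 and 513 FPKM in chrysin, 497, 524 and 531 FPKM in high glucose and 530.4, 522 and 533 FPKM in low glucose. A sum follows its most abundant genes. ADAMTS1 alone averaged 34.7 FPKM in chrysin, 65.9 FPKM in high glucose and 121.7 FPKM in low glucose. It gave the larger part of both ADAMTS steps. MMP2, at 17.8 against 52.7 FPKM, and MMP14, at 108 against 137 FPKM, gave most of the lower MMP sum in chrysin against high glucose. These sums are descriptions and were not tested.

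**Figure D2:**
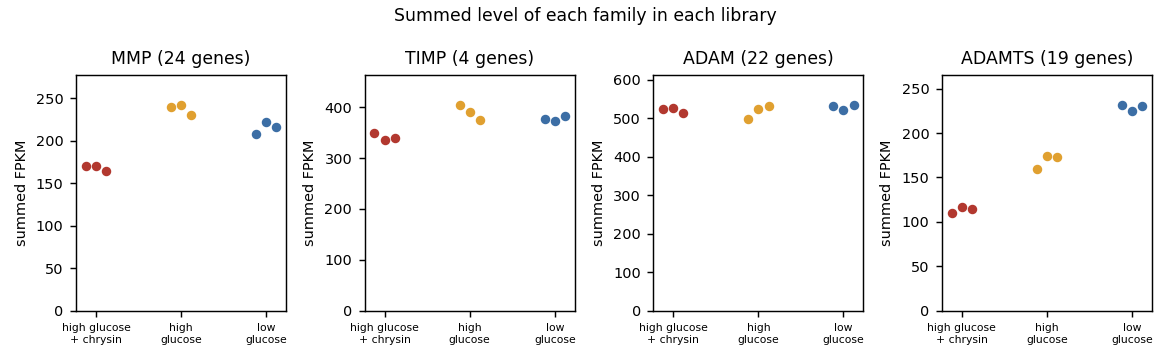
Summed FPKM of all genes of the MMP, TIMP, ADAM and ADAMTS families, 1 point per library, with high glucose with chrysin, high glucose and low glucose from left to right and each axis starting at 0. The ADAMTS points form 3 separate steps, the MMP and TIMP points of chrysin lie below the rest, and the ADAM points overlap. Abundant genes weigh most in each sum, ADAMTS1 in the ADAMTS sum among them.

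Start-site windows are shown for 5 genes with different responses: MMP14, TIMP3 and ADAMTS12, which were lower with chrysin, ADAM19, which was higher, and ADAMTS6, which differed between the glucose groups. Each runs 5′ to 3′ on the gene's strand, from 250 bases before to 50 bases after the RefSeq start on GRCh38.p14. Capitals mark TGANTCA, a relaxed AP-1 form in which N is any base, and CACGTG, the E-box. They also mark GCGTG or its reverse CACGC, the core of the element bound by the aryl hydrocarbon receptor.
MMP14 (chr14:22836335-22836634, plus strand): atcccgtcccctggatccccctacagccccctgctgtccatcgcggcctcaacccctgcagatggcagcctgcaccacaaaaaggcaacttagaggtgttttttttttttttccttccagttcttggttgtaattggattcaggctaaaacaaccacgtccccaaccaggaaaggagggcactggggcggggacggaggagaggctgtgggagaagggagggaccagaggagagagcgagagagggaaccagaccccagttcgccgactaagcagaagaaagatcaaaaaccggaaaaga
TIMP3 (chr22:32801455-32801754, plus strand): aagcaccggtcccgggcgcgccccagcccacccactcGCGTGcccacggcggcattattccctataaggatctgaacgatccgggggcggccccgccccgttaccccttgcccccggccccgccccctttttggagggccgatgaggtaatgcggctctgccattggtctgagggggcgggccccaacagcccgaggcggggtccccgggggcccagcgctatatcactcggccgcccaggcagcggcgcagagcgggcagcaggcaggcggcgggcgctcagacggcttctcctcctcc
ADAMTS12 (chr5:33891941-33892240, minus strand): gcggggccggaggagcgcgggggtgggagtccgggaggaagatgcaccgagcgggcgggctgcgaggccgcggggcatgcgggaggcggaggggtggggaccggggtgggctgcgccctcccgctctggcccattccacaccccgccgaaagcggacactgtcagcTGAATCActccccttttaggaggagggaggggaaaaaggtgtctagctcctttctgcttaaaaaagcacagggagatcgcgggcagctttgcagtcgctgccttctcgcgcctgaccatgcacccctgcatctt
ADAM19 (chr5:157575726-157576025, minus strand): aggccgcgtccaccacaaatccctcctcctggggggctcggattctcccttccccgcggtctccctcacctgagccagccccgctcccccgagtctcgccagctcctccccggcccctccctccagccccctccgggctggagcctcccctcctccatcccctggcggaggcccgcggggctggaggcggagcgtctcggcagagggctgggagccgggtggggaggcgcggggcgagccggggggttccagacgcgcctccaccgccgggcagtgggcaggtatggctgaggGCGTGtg
ADAMTS6 (chr5:65481871-65482170, minus strand): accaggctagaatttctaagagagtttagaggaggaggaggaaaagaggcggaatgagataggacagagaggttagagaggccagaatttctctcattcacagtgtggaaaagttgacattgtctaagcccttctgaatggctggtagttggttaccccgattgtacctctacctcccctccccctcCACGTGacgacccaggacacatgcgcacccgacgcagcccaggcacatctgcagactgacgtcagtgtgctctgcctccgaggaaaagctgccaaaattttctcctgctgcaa

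Counted from the start site, the TGANTCA match of ADAMTS12 lay at -84, the GCGTG matches of TIMP3 and ADAM19 at -213 and +44, and the CACGTG match of ADAMTS6 at -63. The MMP14 window held none of these motifs, and held a CCAAT match at -118 and a GGGCGG match, the GC box, at -66. RefSeq windows matched 22 of the 39 genes, ADAMTS10 with 2 start sites, which made 23 windows. Searched on both strands, TGANTCA was in 1 of these 23 windows (4.35%), against 7.71% of all 35116 windows, and CACGTG was in 2 (8.7%, against 7.26%). The counts for GCGTG were 10 of 23 (43.5%, against 36.5%), for GGGCGG 20 of 23 (87%, against 45%), for CCAAT 7 of 23 (30.4%, against 34.6%) and for TATAAA 1 of 23 (4.35%, against 11.5%). The 23 windows belong to genes that passed 0.5 FPKM, whereas the 35116 were not chosen by expression, so the percentages are not from matched sets. A GGGCGG match may share bases with a GCGTG match, and these matches describe letters only.

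Chrysin was compared with high glucose alone to ask what the flavonoid does to cells already in high glucose. Of the 39 genes, 19 were lower with chrysin, 7 were higher and 13 did not pass the test (limma on log2(FPKM + 0.5), Benjamini-Hochberg adjusted p under 0.05 over 16996 genes). Below, a value after log2 is the fold change on that scale, which understates the change of genes at low level. Among all genes tested 45.8% were called, 20.9% lower and 24.9% higher, and among the 39 genes 48.7% were lower and 17.9% higher. The median log2 fold change of the 39 genes was -0.19, against 0.030 over all genes tested. The libraries of the groups did not overlap for 27 of the 39 genes, against 54.3% of all genes tested. MMP25, which passed the filter through the chrysin group alone, is among the 27 and among the 13 that did not pass. It also enters the median and the percentages of the 39 genes. The lower genes were 6 MMP, 2 TIMP, 3 ADAM and 8 ADAMTS genes, and the higher ones were 1 MMP, 5 ADAM and 1 ADAMTS genes. Without high glucose replicate 1, the library that stood apart, 17 genes were lower and 6 higher. In bulk RNA, fewer cells of a type and less RNA per cell cannot be told apart. Of the 10 fibroblast markers, 7 were lower with chrysin and none was higher, with a median log2 fold change of -0.78. Their summed level was 3792 to 3927 FPKM in chrysin, 6415 to 6765 FPKM in high glucose and 4876 to 5164 FPKM in low glucose, and COL1A1 made up most of it. The share of reads from mitochondrially encoded genes was 3.8% to 3.89% in chrysin, 2.8% to 3.04% in high glucose and 2.79% to 2.9% in low glucose, and the calls of all 39 genes were the same with those genes left out. Of 5 smooth muscle markers tested, 3 were higher and 1 lower with chrysin, and the 6 on that list summed to at least 418 FPKM in each chrysin library, at most 323 FPKM in high glucose and at most 308 FPKM in low glucose. Of other cell types, 1 of 6 endothelial, 3 of 7 macrophage or leukocyte, 3 of 5 epithelial and 1 of 12 cardiomyocyte markers passed 0.5 FPKM. With chrysin 1, 1, 2 and 1 of these were lower, in that order, and none was higher. The 5 epithelial markers summed to 232.8 to 243.2 FPKM in chrysin, 330.8 to 361.9 FPKM in high glucose and 300.4 to 314.5 FPKM in low glucose. The part of these marker genes in the result was not tested.

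High glucose was compared with low glucose to ask how these groups differ. The groups include no osmotic control, so glucose and osmolarity cannot be told apart. Here 6 of the 39 genes were lower in high glucose, 4 were higher and 29 did not pass the test. Over all genes tested 23.5% were called, 8.91% lower and 14.6% higher, against 15.4% and 10.3% of the 39 genes. The median log2 fold change of the 39 genes was 0.071, against 0.025 over all genes, and the groups did not overlap for 20 of the 39 genes, against 37.9% of all genes. The genes lower in high glucose were ADAMTS1, ADAMTS5, ADAMTS6, ADAMTS15, ADAMTS16 and ADAM17, and the higher ones were MMP2, MMP14, ADAMTS2 and ADAM8. By family, the lower genes were 5 of 12 ADAMTS genes and 1 of 13 ADAM genes. Without high glucose replicate 1, the library that stood apart, the counts were 5 higher and 5 lower. The 4 higher genes became 1 without high glucose replicate 2 and 2 without low glucose replicate 1 or with no filter, and the 6 lower genes became 3 without low glucose replicate 3. Among the fibroblast markers 4 of 10 were higher and 2 lower in high glucose. Both comparisons use the same 3 high glucose libraries, so a deviation of those libraries enters both with opposite sign.

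**Figure D3:**
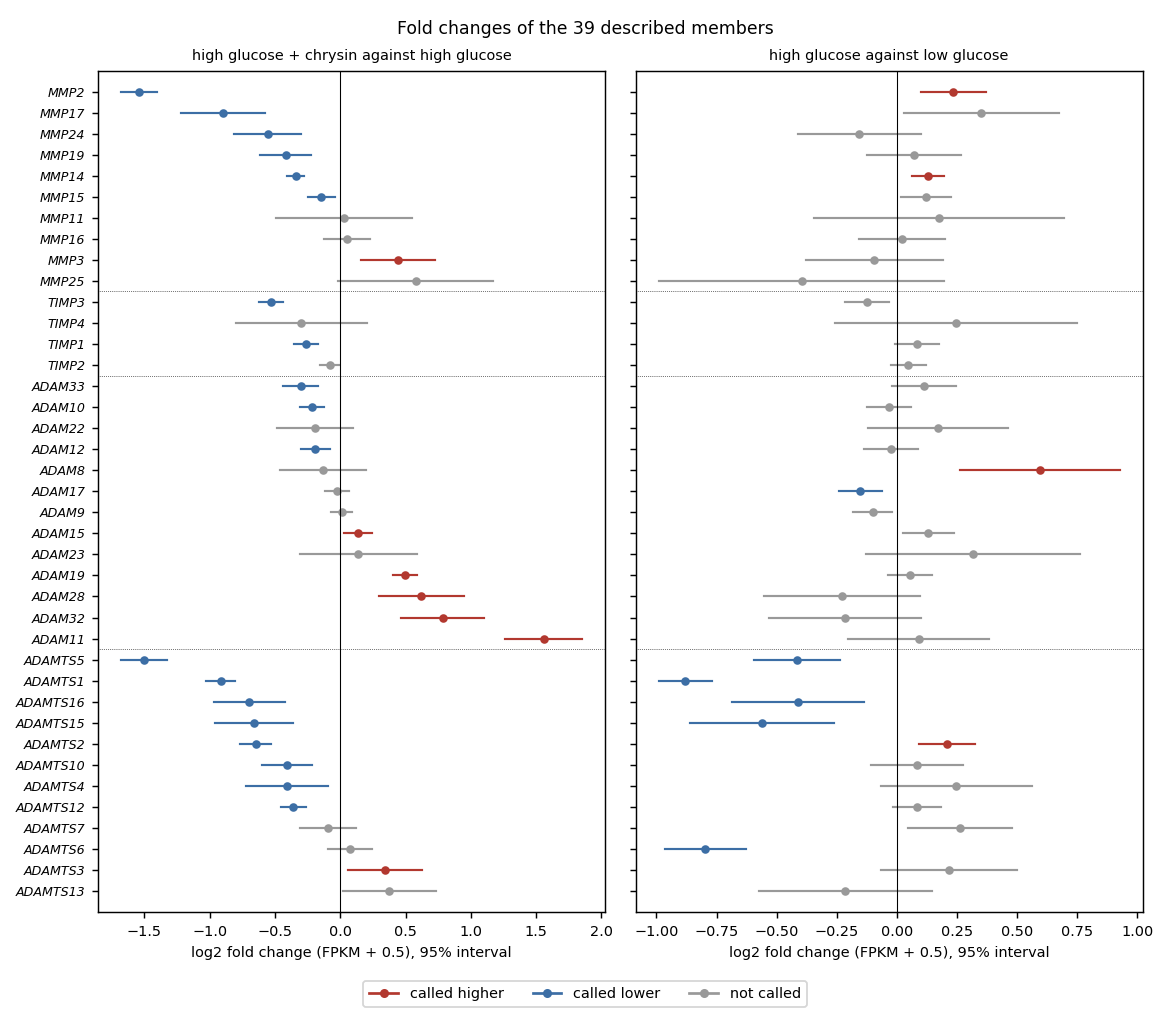
Fold changes of the 39 genes on the log2(FPKM + 0.5) scale with 95% intervals, for high glucose with chrysin against high glucose on the left and high glucose against low glucose on the right (the horizontal scales differ), sorted within each family by the left panel and coloured by the limma call. MMP2 and ADAMTS5 lie farthest to the left with chrysin at -1.54 and -1.501, ADAM11 farthest to the right at 1.56, and ADAMTS1 and ADAMTS6 farthest to the left in high glucose at -0.88 and -0.80. MMP25 passed the filter through the chrysin group alone, so its point in the left panel is not to be read as a test of chrysin.

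MMP2, the gelatinase that cuts denatured collagen and basement membrane collagen (chr16:55389700-55506691, plus strand, hg38), was the one collagenase or gelatinase expressed above 0.5 FPKM. It had 17.3, 19.5 and 16.7 FPKM in the 3 chrysin libraries, 53.2, 54.96 and 49.97 FPKM in high glucose and 42.4, 45.4 and 46.4 FPKM in low glucose. The chrysin libraries were all far below the others, and the high glucose libraries were all above the low glucose ones. With chrysin the mean was 33.8% of that in high glucose, a log2 fold change of -1.54 (SE 0.062, adjusted p = 3.4e-08). Between high and low glucose it was log2 0.23 (SE 0.062, adjusted p = 0.019), a call that was lost without high glucose replicate 2 or low glucose replicate 1 (log2 0.20, adjusted p = 0.07 to 0.073) and with no filter (adjusted p = 0.052). The other gelatinase, MMP9, had 0.0283 FPKM in chrysin, 0.0538 FPKM in high glucose and 0.01496 FPKM in low glucose. MMP1, the interstitial collagenase, was near its detection limit with 0.08297, 0.163 and 0.0458 FPKM in chrysin, 0.0249, 0.154 and 0.0261 FPKM in high glucose and 0.0486, 0.0558 and 0.213 FPKM in low glucose.

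Of the 6 membrane-type MMPs described, 4 were lower with chrysin and none higher, where 20.9% of all genes tested were lower and 24.9% higher. The 6 include MMP25, which passed the filter through the chrysin group alone. One of the 4, MMP15, was called in some settings and not in others. MMP14, the membrane-type enzyme that cuts fibrillar collagen and activates pro-MMP2 (chr14:22836557-22849027, plus strand), was the most abundant MMP. It had 109.7, 106 and 108 FPKM in chrysin, 139, 137 and 134 FPKM in high glucose and 123, 129 and 123 FPKM in low glucose, so the groups took 3 separate ranges with high glucose on top. The log2 fold change was -0.34 (SE 0.030, adjusted p = 6.7e-06) with chrysin and log2 0.13 (SE 0.030, adjusted p = 0.0097) in high against low glucose, the second being a small step with no overlap between libraries. MMP17, which is held at the membrane by a lipid anchor, had 2.05, 1.61 and 1.57 FPKM in chrysin, 3.29, 4.699 and 3.19 FPKM in high glucose and 2.796, 2.796 and 2.71 FPKM in low glucose. All chrysin libraries were lowest, and high glucose replicate 2 stood above its own group. Its fold change was log2 -0.90 (SE 0.14, adjusted p = 0.00048) with chrysin and log2 0.35 (SE 0.14, adjusted p = 0.11) between the glucose groups.

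MMP24, a membrane-type enzyme best known from neurons, had 1.54, 1.36 and 1.803 FPKM in chrysin, 2.46, 2.74 and 2.41 FPKM in high glucose and 2.88, 2.73 and 3.03 FPKM in low glucose. Its chrysin libraries were the 3 lowest, with a log2 fold change of -0.56 (SE 0.12, adjusted p = 0.0025), and the glucose groups overlapped at log2 -0.16 (SE 0.12, adjusted p = 0.38). MMP24 shares 18.1% of its exon bases with MMP24OS on the opposite strand, which reached 68.2 FPKM and itself had a log2 fold change of -0.46 with chrysin (adjusted p = 5.6e-05). No source used here says whether reads were counted by strand, so the MMP24 value is uncertain. MMP15, another collagen-cutting membrane-type enzyme, averaged 14.7 ± 0.3101 FPKM in chrysin and 16.3 ± 0.577 FPKM in high glucose (SD, n = 3 each), a log2 fold change of -0.15 (SE 0.047, adjusted p = 0.026). That call was lost without chrysin replicates 2 or 3 or high glucose replicates 1 or 2 (log2 -0.15 to -0.12, adjusted p = 0.055 to 0.087), and also when only the 2 groups were fitted (adjusted p = 0.051). MMP16 did not pass the test at log2 0.051 (SE 0.081, adjusted p = 0.64), with a 95% interval of -0.13 to 0.23. MMP25, mainly known from neutrophils, averaged 0.605 FPKM in chrysin, 0.244 FPKM in high glucose and 0.491 FPKM in low glucose. It passed the filter through the chrysin group alone, so no test of chrysin is given for it. It shares 35.2% of its exon bases with MMP25-AS1 on the opposite strand, which makes its value uncertain.

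Among the stromelysins and other secreted MMPs, 3 of 11 were above 0.5 FPKM, and they went in different directions. MMP3, stromelysin 1, which cuts many matrix proteins and activates other MMPs, had 2.995, 3.6 and 3.34 FPKM in chrysin, 2.64, 2.09 and 2.19 FPKM in high glucose and 2.201, 2.96 and 2.35 FPKM in low glucose. Its chrysin libraries were above the high glucose ones with no overlap, and it was the 1 MMP called higher of the 10 described, at log2 0.44 (SE 0.13, adjusted p = 0.016), on 38 to 66 reads per library. The call was lost without chrysin replicate 2 or high glucose replicate 2 (log2 0.39, adjusted p = 0.058 to 0.062) and in the voom fit on recovered reads (log2 0.48, adjusted p = 0.053). MMP19, a basement membrane protease, had 6.59, 7.88 and 6.79 FPKM in chrysin, 9.64, 10.04 and 9.15 FPKM in high glucose and 8.16, 9.86 and 9.42 FPKM in low glucose. Chrysin libraries were all lowest, at log2 -0.42 (SE 0.088, adjusted p = 0.0028), while the glucose groups overlapped at log2 0.071 (SE 0.088, adjusted p = 0.61). The MMP19 value is uncertain, because 17.4% of its exon bases are shared with TMEM198B on the opposite strand, whose log2 fold change was -0.98 with chrysin (adjusted p = 4.1e-06). MMP11, stromelysin 3, did not pass in any comparison, and its libraries ran from 1.51 to 3.52 FPKM within the chrysin group alone.

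**Figure D4:**
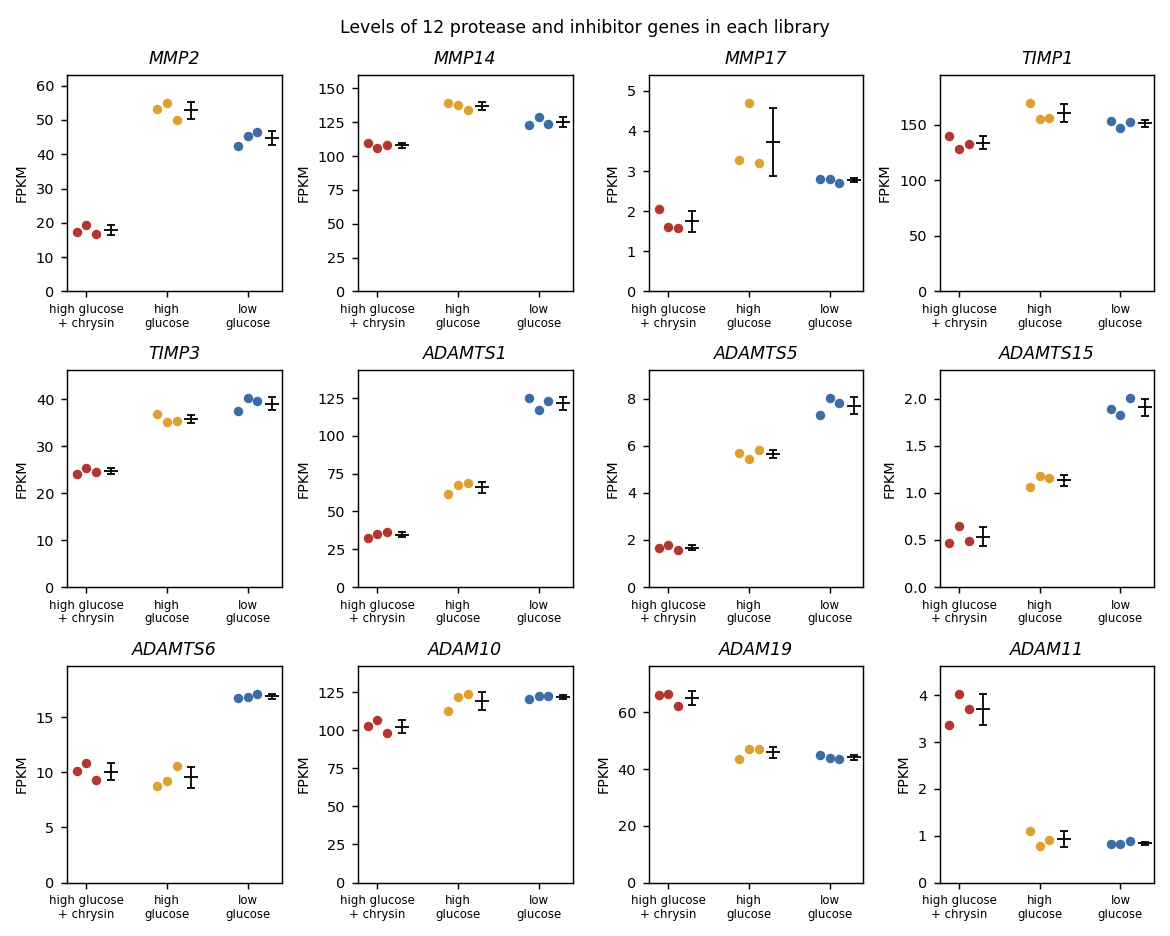
Level of 12 genes in FPKM in each library, with the mean and SD of the 3 libraries beside the points of each group and each axis starting at 0. From left to right in every panel are high glucose with chrysin, high glucose and low glucose; MMP2 and MMP14 peak in high glucose, ADAMTS1, ADAMTS5 and ADAMTS15 are lowest with chrysin and highest in low glucose, ADAMTS6 is high in low glucose alone, and ADAM19 and ADAM11 are high with chrysin.

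Of the 4 TIMP genes, TIMP1 and TIMP3 were lower with chrysin and none passed the test between high and low glucose. Over all genes tested 20.9% were lower with chrysin, and 23.5% were called in either direction between the glucose groups. TIMP3, which stays bound to the matrix and also inhibits ADAM17 and ADAMTS proteoglycanases (chr22:32801701-32863043, plus strand), had 24.1, 25.4 and 24.5 FPKM in chrysin, 36.8, 35.1 and 35.4 FPKM in high glucose and 37.4, 40.2 and 39.6 FPKM in low glucose. The 3 groups did not overlap and low glucose was highest. Its log2 fold change was -0.53 (SE 0.042, adjusted p = 3.3e-06) with chrysin, and it missed the threshold in high against low glucose at log2 -0.12 (SE 0.042, adjusted p = 0.053). That second value passed without high glucose replicate 1 or low glucose replicate 1 (log2 -0.15 to -0.14, adjusted p = 0.041), and under median-of-ratios scaling, the voom fit and the higher filter (log2 -0.16 to -0.12, adjusted p = 0.0017 to 0.04). TIMP1, a soluble inhibitor of most secreted MMPs (chrX:47582313-47586789, plus strand), had 139.8, 128 and 133 FPKM in chrysin, 169.7, 155 and 156 FPKM in high glucose and 154, 147 and 153 FPKM in low glucose. Every chrysin library was below every other library, at log2 -0.26 (SE 0.042, adjusted p = 0.00048), and high against low glucose was log2 0.083 (SE 0.042, adjusted p = 0.18).

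TIMP2, which both inhibits MMPs and, with MMP14, helps to activate pro-MMP2, had 184, 182 and 181 FPKM in chrysin, 196, 199 and 183 FPKM in high glucose and 186, 184 and 190.0 FPKM in low glucose. The chrysin and high glucose libraries overlapped, and the fold change of log2 -0.080 (SE 0.033, adjusted p = 0.07) had a 95% interval of -0.15 to -0.0069. TIMP2 passed the test without high glucose replicate 3 (log2 -0.12, adjusted p = 0.0064), under median-of-ratios scaling (log2 -0.11, adjusted p = 0.021) and in the voom fit (log2 -0.13, adjusted p = 0.0012). TIMP4, the inhibitor known for its expression in heart, was the lowest, with 1.32, 0.762 and 1.36 FPKM in chrysin, 1.11, 2.07 and 1.42 FPKM in high glucose and 1.44, 1.34 and 0.834 FPKM in low glucose, and its groups overlapped in each comparison. MMP2 and its inhibitor TIMP2 had chrysin fold changes far apart, -1.54 and -0.080 on the log2 scale, and MMP14, the third partner in pro-MMP2 activation, lay between them at -0.34.

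Of the 7 ADAMTS genes whose enzymes cut proteoglycans such as versican and aggrecan, 4 were above 0.5 FPKM, all of them lower with chrysin and 3 of them lower in high against low glucose. Over all genes tested 20.9% were lower with chrysin and 8.91% lower in high against low glucose. The median log2 fold change of these 4 genes was -0.79 with chrysin, against 0.030 over all genes tested, and -0.49 in high against low glucose, against 0.025. ADAMTS1, a versican-cutting protease that is also known to restrain blood vessel growth (chr21:26835747-26845409, minus strand), was the most abundant. It had 32.7, 35.05 and 36.3 FPKM in chrysin, 61.9, 67.2 and 68.6 FPKM in high glucose and 125, 117 and 123 FPKM in low glucose. Each group lay wholly below the next, with high glucose at 54.1% of low glucose and chrysin at 52.6% of high glucose. The steps were log2 -0.92 (SE 0.050, adjusted p = 2.8e-07) with chrysin and log2 -0.88 (SE 0.050, adjusted p = 1.3e-06) in high against low glucose. ADAMTS5, the main aggrecan-cutting enzyme of mouse cartilage, is the neighbour of ADAMTS1 on chromosome 21 (chr21:26917912-26966513, minus strand). It had 1.67, 1.78 and 1.58 FPKM in chrysin, 5.698, 5.46 and 5.82 FPKM in high glucose and 7.31, 8.02 and 7.81 FPKM in low glucose. The order of the groups was the same as for ADAMTS1, at log2 -1.501 (SE 0.081, adjusted p = 2.6e-07) with chrysin and log2 -0.41 (SE 0.081, adjusted p = 0.0042) in high against low glucose.

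ADAMTS15, a versican-cutting enzyme, had 0.471, 0.651 and 0.485 FPKM in chrysin, 1.07, 1.18 and 1.16 FPKM in high glucose and 1.89, 1.83 and 2.005 FPKM in low glucose, again 3 ranges that did not overlap. Its fold change was log2 -0.66 (SE 0.14, adjusted p = 0.0023) with chrysin, which the pseudocount makes smaller at such a level, and -1.14 in the voom fit on recovered reads (adjusted p = 2.5e-06). Between the glucose groups it was log2 -0.56 (SE 0.14, adjusted p = 0.013), and it just missed the threshold without low glucose replicate 3 (log2 -0.53, adjusted p = 0.05). ADAMTS4, aggrecanase 1, had 0.961, 1.44 and 1.23 FPKM in chrysin, 1.79, 1.702 and 1.77 FPKM in high glucose and 1.24, 1.56 and 1.42 FPKM in low glucose. The chrysin libraries were all below the high glucose ones, at log2 -0.41 (SE 0.14, adjusted p = 0.035), a call that was lost without chrysin replicates 1 or 3 or high glucose replicates 1, 2 or 3 (log2 -0.43 to -0.30, adjusted p = 0.066 to 0.12), with no filter (adjusted p = 0.094) and with only the 2 groups fitted (adjusted p = 0.053). Between the glucose groups ADAMTS4 did not pass the test and ran the other way, at log2 0.25 (SE 0.14, adjusted p = 0.24).

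The procollagen-trimming enzymes parted. ADAMTS2, which removes the amino-terminal propeptide from fibrillar procollagens, had 11.5, 11.1 and 10.6 FPKM in chrysin, 16.9, 18.5 and 17.4 FPKM in high glucose and 15.1, 15.4 and 15.0 FPKM in low glucose. High glucose was highest and chrysin lowest with no overlap, at log2 -0.65 (SE 0.053, adjusted p = 4.6e-06) with chrysin and log2 0.21 (SE 0.053, adjusted p = 0.017) in high against low glucose. The second call was lost without high glucose replicate 2 or low glucose replicates 1 or 3 (log2 0.17 to 0.21, adjusted p = 0.051 to 0.066). ADAMTS3, a related enzyme that also processes the lymphatic growth factor VEGFC, had 2.42, 2.55 and 2.32 FPKM in chrysin, 1.48, 2.12 and 1.88 FPKM in high glucose and 1.42, 1.55 and 1.499 FPKM in low glucose. Every chrysin library was above every high glucose library, at log2 0.34 (SE 0.13, adjusted p = 0.049), just inside the threshold. The call was lost without chrysin replicates 1, 2 or 3, high glucose replicates 1 or 3 or low glucose replicates 1, 2 or 3 (log2 0.23 to 0.37, adjusted p = 0.06 to 0.16). It was also lost with a pseudocount of 0.1 (adjusted p = 0.053), under median-of-ratios scaling (adjusted p = 0.064), with only the 2 groups fitted (adjusted p = 0.073) and with no filter (adjusted p = 0.12). The main substrates of ADAMTS2, COL1A1 and COL1A2, had log2 fold changes of -0.82 and -0.76 with chrysin, and of 0.47 and 0.27 in high against low glucose.

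ADAMTS6, an enzyme needed for heart development in mice (chr5:65148736-65481920, minus strand), differed between the glucose groups and did not pass the test with chrysin. It had 10.1, 10.8 and 9.297 FPKM in chrysin, 8.78, 9.24 and 10.6 FPKM in high glucose and 16.8, 16.8 and 17.1 FPKM in low glucose. All 6 libraries in high glucose, with or without chrysin, were below all 3 in low glucose, and chrysin overlapped with high glucose. The fold change was log2 -0.80 (SE 0.076, adjusted p = 5.7e-05) in high against low glucose and log2 0.077 (SE 0.076, adjusted p = 0.44) with chrysin, with a 95% interval of -0.092 to 0.25 for the chrysin value. ADAMTS16, a fibronectin-cutting enzyme, had 1.28, 1.102 and 1.61 FPKM in chrysin, 2.27, 2.65 and 2.43 FPKM in high glucose and 3.48, 3.495 and 3.29 FPKM in low glucose. It was ordered like ADAMTS1, at log2 -0.70 (SE 0.12, adjusted p = 0.00095) with chrysin and log2 -0.41 (SE 0.12, adjusted p = 0.035) between the glucose groups. The value between the glucose groups lost its call without high glucose replicates 1 or 3 or low glucose replicates 1, 2 or 3 (log2 -0.44 to -0.37, adjusted p = 0.07 to 0.093) and with no filter (adjusted p = 0.095).

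ADAMTS10, which binds fibrillin microfibrils, had 3.19, 3.19 and 3.74 FPKM in chrysin, 4.47, 4.79 and 4.67 FPKM in high glucose and 4.28, 4.47 and 4.29 FPKM in low glucose. Only the chrysin libraries stood apart, at log2 -0.41 (SE 0.087, adjusted p = 0.0027). ADAMTS12, a protease reported to cut cartilage oligomeric matrix protein, averaged 38.2 ± 0.816 FPKM in chrysin and 49.1 ± 3.06 FPKM in high glucose (SD, n = 3 each), at log2 -0.36 (SE 0.045, adjusted p = 8e-05). ADAMTS12 is the gene whose printed window holds a match to the relaxed form TGANTCA, which there reads TGAATCA. Between the glucose groups ADAMTS12 passed only without high glucose replicate 1 (log2 0.13, adjusted p = 0.021). ADAMTS7, related to ADAMTS12, did not pass with chrysin at log2 -0.094 (SE 0.097, adjusted p = 0.46). In high against low glucose ADAMTS7 had log2 0.26 (SE 0.097, adjusted p = 0.076). That value passed without high glucose replicate 3 or low glucose replicate 1 (log2 0.34 to 0.35, adjusted p = 0.032 to 0.042). It also passed under the 5 FPKM filter (adjusted p = 0.049) and in the voom fit (log2 0.24, adjusted p = 0.04). ADAMTS13, which cuts von Willebrand factor in plasma, had log2 0.38 (SE 0.16, adjusted p = 0.081) with chrysin and passed in the voom fit (log2 0.53, adjusted p = 0.033).

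Of the 9 described ADAMs with an active site, 3 were higher and 3 lower with chrysin, where 24.9% of all genes tested were higher and 20.9% lower. Their median log2 fold change was -0.026, against 0.030 over all genes tested. ADAM10, the sheddase of Notch receptors and N-cadherin (chr15:58588807-58749978, minus strand), had 102, 107 and 98.02 FPKM in chrysin, 112, 122 and 124 FPKM in high glucose and 121, 122 and 123 FPKM in low glucose. All chrysin libraries were lowest at log2 -0.22 (SE 0.042, adjusted p = 0.0014), a mean of 85.8% of high glucose, and the glucose groups overlapped. ADAM17, the sheddase of tumour necrosis factor and of several EGF-receptor ligands, had 30.2, 28.2 and 29.4 FPKM in chrysin, 28.9, 30.1 and 30.5 FPKM in high glucose and 32.8, 32.99 and 33.7 FPKM in low glucose. It did not pass with chrysin at log2 -0.026 (SE 0.041, adjusted p = 0.64) and was lower in high against low glucose at log2 -0.15 (SE 0.041, adjusted p = 0.021). That call was lost without high glucose replicate 1 or low glucose replicates 2 or 3 (log2 -0.16 to -0.13, adjusted p = 0.051 to 0.074). ADAM17 shares 12.3% of its exon bases with IAH1 on the opposite strand, which makes its value uncertain.

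ADAM19, a shedder of neuregulin that takes part in heart valve development in mice (chr5:157395534-157575775, minus strand), rose with chrysin. It had 66.2, 66.5 and 62.2 FPKM in chrysin, 43.6, 47.1 and 47.1 FPKM in high glucose and 45.1, 44.1 and 43.4 FPKM in low glucose. Every chrysin library was above the rest, at log2 0.50 (SE 0.042, adjusted p = 5.1e-06), and the glucose groups overlapped at log2 0.054 (SE 0.042, adjusted p = 0.4). ADAM28, a lymphocyte-associated member, had 2.65, 3.58 and 2.57 FPKM in chrysin, 2.04, 1.75 and 1.399 FPKM in high glucose and 2.17, 1.96 and 2.14 FPKM in low glucose. All 3 chrysin libraries were highest, at log2 0.62 (SE 0.15, adjusted p = 0.0054). ADAM15, a member found in endothelial and smooth muscle cells, averaged 61.9 ± 2.997 FPKM in chrysin and 56.4 ± 3.06 FPKM in high glucose (SD, n = 3 each), groups that overlapped. Its call at log2 0.14 (SE 0.049, adjusted p = 0.041) was lost without chrysin replicates 1 or 3, high glucose replicates 2 or 3 or low glucose replicate 2 (log2 0.10 to 0.14, adjusted p = 0.055 to 0.15), and under no filter, median-of-ratios scaling, the voom fit and the fit of only the 2 groups (log2 0.094 to 0.14, adjusted p = 0.061 to 0.099).

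ADAM8, known from leukocytes, was higher in high than in low glucose, with 2.79, 2.996 and 2.58 FPKM in high glucose and 1.57, 1.598 and 1.87 FPKM in low glucose. The chrysin libraries had 2.02, 3.27 and 2.33 FPKM and overlapped with high glucose at log2 -0.13 (SE 0.15, adjusted p = 0.51). The glucose difference of log2 0.59 (SE 0.15, adjusted p = 0.016) lost its call without high glucose replicate 2 or low glucose replicate 1 (log2 0.55 to 0.56, adjusted p = 0.052 to 0.056) and with no filter (adjusted p = 0.054). ADAM12, linked to muscle and fibrosis, fell by 0.19 on the log2 scale with chrysin (SE 0.051, adjusted p = 0.011), and ADAM33, an airway smooth muscle gene, had log2 -0.30 (SE 0.060, adjusted p = 0.0018). ADAM9 did not pass in any comparison under the settings used throughout, its interval with chrysin being -0.070 to 0.089, and its sign turned under median-of-ratios scaling (log2 -0.019) and the voom fit (log2 -0.035). Between the glucose groups ADAM9 had log2 -0.10 (SE 0.036, adjusted p = 0.068) and passed without high glucose replicate 3 (log2 -0.13, adjusted p = 0.035). It also passed under the 5 FPKM filter, median-of-ratios scaling and the voom fit (log2 -0.14 to -0.10, adjusted p = 0.0026 to 0.042). For chrysin against low glucose it had log2 -0.091 (SE 0.036, adjusted p = 0.056) and passed under 6 alternatives, with adjusted p from 9.9e-05 in the voom fit to 0.042.

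Of the 4 described ADAMs that lack an active site or whose activity is unclear, 2 were higher with chrysin and none lower. Over all genes tested 24.9% were higher and 20.9% lower. ADAM11, a non-catalytic member known from brain (chr17:44759031-44781846, plus strand), had 3.37, 4.03 and 3.701 FPKM in chrysin, 1.11, 0.774 and 0.915 FPKM in high glucose and 0.822, 0.814 and 0.881 FPKM in low glucose. Each chrysin library was far above every other library, the mean being 397% of high glucose, at log2 1.56 (SE 0.13, adjusted p = 5.8e-06), the largest rise among the 39 genes. The glucose groups overlapped at log2 0.091 (SE 0.13, adjusted p = 0.68). ADAM32, a member known from testis, had 1.45, 1.301 and 1.604 FPKM in chrysin, 0.699, 0.592 and 0.609 FPKM in high glucose and 0.795, 0.7497 and 0.901 FPKM in low glucose. The chrysin libraries lay above both glucose groups, at log2 0.78 (SE 0.14, adjusted p = 0.0011), on 20 to 60 reads per library. ADAM22, the receptor of the synaptic protein LGI1, and ADAM23, its relative, did not pass in any comparison, at log2 -0.19 (SE 0.13, adjusted p = 0.26) and log2 0.14 (SE 0.20, adjusted p = 0.61) with chrysin. ADAM23 passed against low glucose in the voom fit (log2 0.69, adjusted p = 0.038).

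Set against low glucose, cells given high glucose with chrysin had 19 of the 39 genes lower, 8 higher and 12 that did not pass, where 51% of all genes tested were called, 21.3% lower and 29.7% higher. The 8 higher genes became 5 without chrysin replicate 2 or low glucose replicate 1. The median log2 fold change was -0.16, against 0.051 over all genes, and the groups did not overlap for 30 of the 39 genes, against 60% of all genes. ADAMTS5 was at 21.8% of low glucose, at log2 -1.92 (SE 0.081, adjusted p = 2.9e-08), and ADAMTS1 at 28.5%, at log2 -1.797 (SE 0.050, adjusted p = 1.5e-09). MMP2 was at 39.9% of low glucose, at log2 -1.305 (SE 0.062, adjusted p = 6.9e-08), so the chrysin level lay below both glucose groups and not between them. The same held for MMP14 at log2 -0.21 (SE 0.030, adjusted p = 0.00015) and ADAMTS2 at log2 -0.44 (SE 0.053, adjusted p = 5.3e-05). MMP15 did not pass against low glucose at log2 -0.023 (SE 0.047, adjusted p = 0.72), with a 95% interval of -0.13 to 0.081. ADAM8 was higher than in low glucose at log2 0.46 (SE 0.15, adjusted p = 0.025), a call lost without chrysin replicate 2 or low glucose replicates 1 or 2 (log2 0.30 to 0.44, adjusted p = 0.066 to 0.094), with no filter (adjusted p = 0.069) and in the voom fit (adjusted p = 0.055). ADAM11 and ADAM19 were above low glucose at log2 1.65 (SE 0.13, adjusted p = 2.7e-06) and log2 0.55 (SE 0.042, adjusted p = 1.7e-06).

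Transcripts of the matrix proteins that these enzymes cut were mostly lower with chrysin as well. Of 17 matrix substrate genes tested, 10 were lower and 2 higher, with a median log2 fold change of -0.41. Over all genes tested, for this and the lists that follow, 20.9% were lower and 24.9% higher with chrysin with a median of 0.030. The shares were 8.91% lower and 14.6% higher in high against low glucose, with a median of 0.025. Among the 17, COL1A1, COL1A2, COL3A1 and DCN are also among the 10 fibroblast markers. COL1A2 had log2 -0.76 (SE 0.024, adjusted p = 6.6e-09), COL1A1 log2 -0.82 (SE 0.036, adjusted p = 6.6e-08) and COL3A1 log2 -0.74 (SE 0.037, adjusted p = 1.6e-07). The 2 higher genes, named after their values were seen, were the basement membrane collagens COL4A1 at log2 0.63 (SE 0.033, adjusted p = 2.5e-07) and COL4A2 at log2 0.21 (SE 0.028, adjusted p = 0.00013). Basement membrane collagen, as protein, is a substrate of MMP2, the enzyme gene that was at 33.8% of its high glucose level. The values here are transcript levels, and a link between them was not tested. In high against low glucose 4 of the 17 were higher and 7 lower, with COL1A1 at log2 0.47 (SE 0.036, adjusted p = 1.3e-05), COL1A2 at log2 0.27 (SE 0.024, adjusted p = 3.1e-05) and COL4A2 at log2 -0.20 (SE 0.028, adjusted p = 0.00051).

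Transcription factors of the AP-1 and ETS families, with RUNX2, are known regulators of MMP genes, and 10 of the 14 tested were lower with chrysin and 2 higher, with a median of -0.51, against 20.9% lower, 24.9% higher and a median of 0.030 over all genes. RUNX2, a runt-family factor, had log2 -1.21 (SE 0.057, adjusted p = 1.1e-07), JUN log2 -0.69 (SE 0.037, adjusted p = 2.6e-07) and JUND log2 -1.07 (SE 0.079, adjusted p = 2.1e-06). FOSL1 and ETV5, named after their values were seen, were higher at log2 0.24 (SE 0.038, adjusted p = 0.00037) and log2 0.40 (SE 0.045, adjusted p = 3.8e-05). In high against low glucose 5 of the 14 were higher and 4 lower, among them JUN at log2 0.37 (SE 0.037, adjusted p = 8e-05), JUNB at log2 0.65 (SE 0.077, adjusted p = 0.00023) and ETS2 at log2 -0.43 (SE 0.043, adjusted p = 7.9e-05). With chrysin ETS2 had log2 -0.42 (SE 0.043, adjusted p = 2e-05).

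Inhibitors and clearance receptors outside the TIMP family were mixed, with 3 of 10 tested higher and 4 lower with chrysin. LRP1, the receptor that takes up MMPs, TIMPs and ADAMTS enzymes, had log2 -0.47 (SE 0.028, adjusted p = 5.6e-07), SERPINE2, an inhibitor of plasminogen activators and thrombin, log2 0.29 (SE 0.029, adjusted p = 2e-05), and SPINT2, an inhibitor of membrane serine proteases, log2 -0.97 (SE 0.12, adjusted p = 5.9e-05). RECK, a membrane-bound MMP inhibitor, was higher at log2 0.29 (SE 0.056, adjusted p = 0.0016) and was named after its value was seen. In high against low glucose 1 of the 10 was higher and 4 lower, among them THBS1 at log2 -0.47 (SE 0.039, adjusted p = 2.5e-05) and THBS2 at log2 -0.31 (SE 0.037, adjusted p = 0.00021).

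On a list of genes around the activation of MMP and ADAM zymogens, 6 were tested, of which 4 were lower and 2 higher with chrysin, and 2 were higher and 1 lower in high against low glucose. PLAT and PLAU, the plasminogen activators, had log2 -0.73 (SE 0.055, adjusted p = 2.6e-06) and log2 -0.74 (SE 0.12, adjusted p = 0.00036). The other 2 lower genes, named after their values were seen, are no proteases: PLAUR, the urokinase receptor, had log2 -0.14 (SE 0.049, adjusted p = 0.033), and BSG, a surface protein known to induce MMP expression, had log2 -0.078 (SE 0.028, adjusted p = 0.044). PCSK7 and FURIN, proprotein convertases that cut off prodomains, were the 2 higher genes, at log2 0.24 (SE 0.043, adjusted p = 0.00097) and log2 0.20 (SE 0.040, adjusted p = 0.0021), and FURIN was also higher in high than in low glucose at log2 0.35 (SE 0.040, adjusted p = 0.00019). Of 10 partners that carry or regulate ADAM10 and ADAM17, 2 were lower and 1 higher with chrysin: TSPAN17 had log2 -0.42 (SE 0.049, adjusted p = 5.1e-05) and TSPAN5 log2 -0.30 (SE 0.043, adjusted p = 0.00022), both in a subgroup of tetraspanins that bind ADAM10, and PACS2 had log2 0.21 (SE 0.045, adjusted p = 0.003). In high against low glucose 3 of these 10 were higher and none lower, with FRMD8, which stabilises the ADAM17 complex, at log2 0.42 (SE 0.062, adjusted p = 0.00081).

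Shed surface proteins showed no common direction, with 5 of 16 tested higher and 5 lower with chrysin and a median of -0.0032. The smallest p-values belonged to L1CAM at log2 -0.40 (SE 0.024, adjusted p = 5.6e-07), CD44 at log2 -0.32 (SE 0.020, adjusted p = 7.7e-07) and TNFRSF1A at log2 -0.35 (SE 0.031, adjusted p = 6.8e-06). In high against low glucose JAG1, a Notch ligand, had log2 -0.83 (SE 0.073, adjusted p = 3e-05), TNFRSF1A log2 0.34 (SE 0.031, adjusted p = 4.1e-05) and NOTCH3 log2 0.54 (SE 0.073, adjusted p = 0.00047). The ADAMTS-like proteins, which resemble ADAMTS enzymes without a protease domain, had 2 of 5 tested lower and 1 higher with chrysin. ADAMTSL4, known from the zonule of the eye, led them at log2 -0.92 (SE 0.051, adjusted p = 3.5e-07). Of 6 other matrix-related metalloproteases tested, 4 were lower and 1 higher with chrysin, with BMP1, a procollagen C-proteinase, at log2 -0.28 (SE 0.042, adjusted p = 0.00027), and its relative TLL1 at log2 0.70 (SE 0.12, adjusted p = 0.0007).

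**Figure D5:**
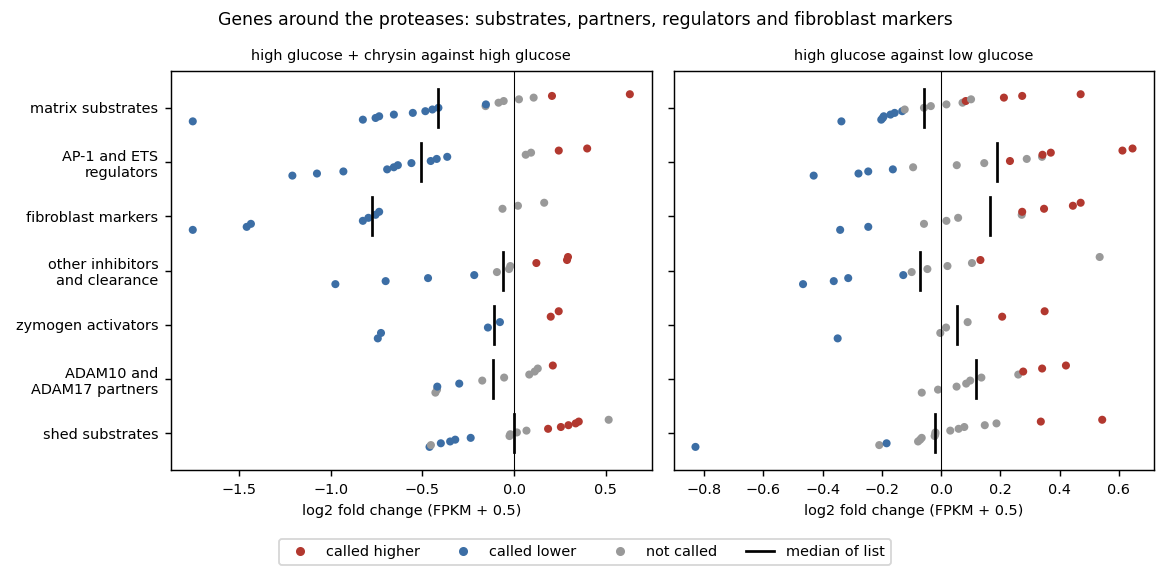
Log2 fold changes of tested genes in 7 lists around the proteases, for high glucose with chrysin against high glucose on the left and high glucose against low glucose on the right (the horizontal scales differ), 1 point per gene coloured by the limma call and a black bar at the list's median. With chrysin the medians of the matrix substrates, the AP-1 and ETS regulators and the fibroblast markers lie left of 0 at -0.41, -0.51 and -0.78, and those of the other lists lie nearer to 0.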

How the data were processed

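The table deposited by the authors held 9 columns of FPKM for 60671 genes. No header names the unit, so it was inferred from the values. Tools listed in the submitters' processing notes, with no roles given, are HTSeq 0.13.5, StringTie 2.2.1, HISAT2 2.2.1 and fastp 0.23.4, and the build is hg38. No source used here gives the annotation release or says whether strand was used. Read numbers were worked out from the smallest FPKM steps of each gene. They came out whole (within 4.6e-05 reads) for 28230 of 28230 genes detected in 2 or more libraries, and the 4119 genes detected in 1 library were given 1 read.

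limma 3.58.1 (R 4.3.3) with a mean-variance trend was run on log2(FPKM + 0.5) for 16996 genes averaging 0.5 FPKM or more in a group. The model covered the 9 libraries and had a term for each group, contrasts were two-sided, and p-values were Benjamini-Hochberg adjusted over those genes. An exact permutation test of 3 against 3 libraries cannot go below 0.1. Positions are from GENCODE on hg38.

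The genes and lists were chosen with earlier results of these data known. Values in every library are given for TIMP1, TIMP2, TIMP3, MMP1, MMP2, MMP3, MMP14, ADAM10, ADAM17 and ADAMTS1, and for genes called anywhere with a log2 fold change of at least 0.4 in size. From other lists, up to 3 called genes per comparison with the smallest p are named.

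The fit was repeated with pseudocounts of 0.1 or 1, without the filter, with a filter at 5 FPKM, with scaling by median of ratios, by voom on the recovered reads, with replicate number as a block, on the compared groups alone, with fold changes of at least 0.5 on the log2 scale, and without each library. Leaving out mitochondrially encoded genes was added after the data were seen.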

Additional observations from a re-analysis of the deposited data

How the results depend on the processing

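The 39 genes gave 63 calls over the 3 comparisons, of which 48 passed under every alternative in which their gene was tested, other than the minimum size of 0.5 (18 of the 39 members were not tested at the 5 FPKM filter), and no called value changed sign. Of 1172 values of called genes under the alternatives, 117 lost the call, and of 993 values of uncalled genes 31 passed. With chrysin against high glucose, the members higher numbered 2 at a mean of at least 5 FPKM (21 members tested) and 3 with the minimum size, against 7, and the members lower numbered 9 with the minimum size, against 19. In high against low glucose, the members higher numbered 2 with no filter, 1 with the minimum size and 1 to 6 with a library left out, against 4, and the members lower numbered 3 with the minimum size and 3 to 6 with a library left out, against 6. With chrysin against low glucose, the members higher numbered 2 at a mean of at least 5 FPKM, 4 with the minimum size and 5 to 8 with a library left out, against 8, and the members lower numbered 9 with the minimum size, against 19. The causes of these shifts were not tested, except that the higher filter tests fewer members and the minimum size removes small changes by construction. Library numbers did not pair the samples: same-numbered libraries correlated at -0.0153 to 0.00802 after removing group means. With the replicate block the counts were 7 higher and 19 lower with chrysin against high glucose, 4 and 5 in high against low glucose, and 6 and 19 with chrysin against low glucose. Among the calls, the block left out ADAMTS3 with chrysin against high glucose (adjusted p = 0.056) and ADAMTS16 in high against low glucose (adjusted p = 0.06). With chrysin against low glucose it left out ADAM28 (adjusted p = 0.055) and MMP3 (adjusted p = 0.064). The 7 higher with the block include MMP25, which passed the filter through the chrysin group alone and was not called without the block.

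Uncalled values near 0 turned sign. With chrysin against high glucose, MMP11 was -0.059 in the voom fit, and ADAM9 was -0.019 under median-of-ratios scaling and -0.035 in the voom fit. MMP16 was -0.0061 under median-of-ratios scaling and -0.014 in the voom fit for high against low glucose, and -0.010 in the voom fit for chrysin against low glucose. With a library left out, log2 values ran from -0.20 to 0.30 for MMP11, -0.032 to 0.038 for ADAM9, -0.020 to 0.12 for MMP16 and -0.049 to 0.0010 for ADAM17 with chrysin against high glucose. For high against low glucose they ran from -0.059 to 0.010 for ADAM10, -0.052 to 0.011 for ADAM12, -0.037 to 0.093 for MMP16, -0.18 to 0.012 for MMP3 and -0.0045 to 0.12 for MMP19. For chrysin against low glucose they ran from -0.021 to 0.48 for MMP11, -0.063 to 0.35 for MMP25, -0.087 to 0.021 for ADAM22 and -0.22 to 0.13 for TIMP4. Depth limits MMP25, TIMP4, ADAM23 and ADAM32, which had as few as 2, 17, 20 and 20 reads in a library.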
